A study of Homo sapiens with 36 samples.

Results

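The FKBP5 locus was examined as the accessible regions in and around FKBP5 in BT549, an established triple-negative breast cancer cell line. ATAC-seq, which marks open chromatin through adapters that a transposase leaves there, was the assay. Peaks of 36 libraries were kept when their centre lay in the gene (chr6:35573590-35728583, hg38, minus strand) or within 50 kb of either end, and overlapping peaks were merged. The rule uses position alone. It gave 56 regions, numbered R01 to R56 from the lowest coordinate, of 259704 regions over all libraries. Of the 56, 43 lay inside the gene, 4 beyond its 3′ end and 9 upstream.

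All libraries came from cells labelled wild type, and the titles number biological replicates. In the GATA6 experiment, cells received siGATA6, an siRNA pool against the transcription factor GATA6, or the control siRNA siCtl. They were then given dexamethasone (DEX, 500 nM for 2 h), a synthetic glucocorticoid, or vehicle (Veh). The knockdown of GATA6 ran for 72 h. The 4 groups, siGATA6 with DEX, siCtl with DEX, siGATA6 with Veh and siCtl with Veh, had 3 libraries each. In the BRM014 experiment the groups were DEX+BRM014, DEX+DMSO, BRM014 and DMSO, with 4 libraries each and 4 h of treatment. DEX was again at 500 nM, and BRM014, at 10 µM, inhibits BRG1 (SMARCA4) and BRM (SMARCA2), the ATPases of the SWI/SNF chromatin remodelling complex. In the last experiment, siRNAs against both ATPases (siBRG1+siBRM) were set against siCtl without DEX, with 4 libraries each and no duration given in the labels. The findings concern 1 cell line, and the loss of GATA6, BRG1 or BRM protein was not measured here.

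FKBP5 encodes a co-chaperone that binds Hsp90 in complexes with steroid receptors and lowers the affinity of the glucocorticoid receptor for its hormone. The gene is itself a widely used target of that receptor, so that its induction closes a short feedback loop. The hormone-bound receptor occupies elements in enhancers, many of them far from a gene's start, and SWI/SNF slides or evicts nucleosomes at such elements. RefSeq gives FKBP5 an outer start at position 35728583 and an inner start at 35688915, which lies far inside the gene.

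The 250 bases before each start are shown because one of them is covered by an accessible region and the other is not. Region R36 (chr6:35688796-35689174) covered all 250 bases before the inner start, whereas no region overlapped those before the outer start, which lie between R47 (chr6:35727450-35728396) and R48 (chr6:35728991-35729207). Both sequences are from RefSeq, GRCh38.p14, minus strand, with capitals for the letters of GGGCGG or CCAAT or CACGTG, searched on both strands.
Inner start, chr6:35688916-35689165: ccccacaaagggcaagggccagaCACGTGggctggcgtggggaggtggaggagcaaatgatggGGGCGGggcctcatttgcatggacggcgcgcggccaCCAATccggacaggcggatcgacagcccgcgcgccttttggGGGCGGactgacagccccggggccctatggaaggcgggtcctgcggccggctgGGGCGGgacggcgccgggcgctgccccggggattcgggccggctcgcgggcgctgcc
Outer start, chr6:35728584-35728833: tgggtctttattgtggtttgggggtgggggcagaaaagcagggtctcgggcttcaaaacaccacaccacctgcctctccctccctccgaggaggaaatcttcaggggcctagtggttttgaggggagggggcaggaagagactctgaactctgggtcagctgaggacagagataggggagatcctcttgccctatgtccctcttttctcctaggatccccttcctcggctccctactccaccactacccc
The inner sequence had a GC content of 74.8% and held the GC box, GGGCGG, at 3 places, CCAAT at 1 and CACGTG at 1. The outer sequence had a GC content of 57.6% and held none of these motifs. Over 35116 promoters of the same length, 42.6% held GGGCGG, 32% CCAAT and 6.34% CACGTG. The motif of a single glucocorticoid receptor molecule, AGAACA, was in neither sequence and in 12.4% of all promoters. TGANTCA, read by AP-1, was likewise in neither, and in 6.57% of all. AGATAA, 1 form of the motif read by GATA factors, was in neither sequence and in 9.17% of all promoters. Other forms were not searched for. AGATAG, which differs from it in the last base, stands in the outer sequence, and its share of all promoters was not counted. The genome sequence under the other regions was not used here.

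Libraries differed in depth, which a peak list does not state directly. The number of peaks used was 114113 to 131423 in the GATA6 experiment, 41026 to 103956 in the BRM014 experiment and 37184 to 87609 in the ATPase siRNA experiment. The background level recovered from the deposited values, a measure of relative depth, was 0.492 to 0.677, 0.235 to 0.319 and 0.242 to 0.335 in these 3 experiments, so comparisons were kept within an experiment. Peaks lay at the ends of the mesenchymal genes VIM, CDH2, FN1, TWIST1 and AXL in 36 of 36 libraries and at those of ESR1 and PGR in 0. Among markers of other cell types, PECAM1 and CDH5 had a peak in 0 libraries, EPCAM in 11, CD3E in 16, CDH1 in 26 and PTPRC in 30.

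With DEX the locus held more accessible regions than without it, and under BRM014 this difference was smaller. The counts per library were 23, 25 and 22 in siGATA6 with DEX, 23, 22 and 22 in siCtl with DEX, 11, 9 and 9 in siGATA6 with Veh, and 11, 10 and 10 in siCtl with Veh. In the BRM014 experiment they were 13, 10, 9 and 5 with DEX+BRM014, 23, 25, 25 and 19 with DEX+DMSO, 4, 5, 7 and 2 with BRM014, and 6, 9, 9 and 8 with DMSO. The siBRG1+siBRM libraries held 6, 6, 3 and 7, against 8, 6, 9 and 10 in siCtl. The DEX libraries without inhibitor thus stood above every library without DEX, whereas those with DEX+BRM014 overlapped the DMSO libraries. Against BRM014 alone, the DEX+BRM014 libraries with 13, 10 and 9 stood above every library, and the one with 5 did not.

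**Figure D1:**
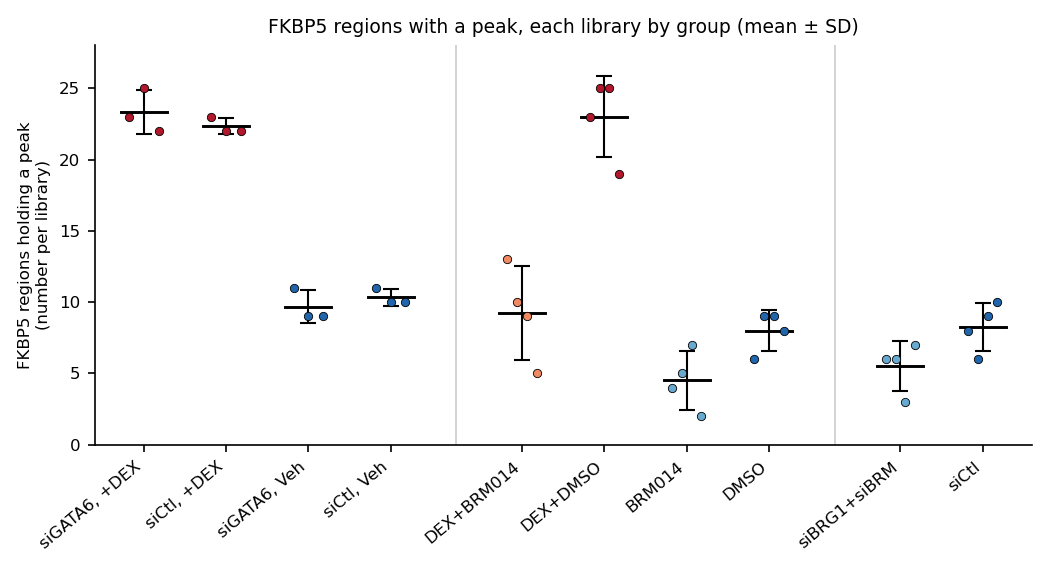
Number of FKBP5 regions holding a peak in each library (points), with the mean and SD of each group (bars); grey lines part the 3 experiments. The DEX libraries without inhibitor hold 19 to 25 regions and the others at most 13.

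Regions differed in how widely they were held. R52 (chr6:35737561-35737798), in the upstream gene ARMC12, was held by all 36 libraries, and R07 (chr6:35583929-35584131), deep in the gene, by 35. At the other end, 26 regions were held by 1 library each, 23 of them by a DEX library and 3 by a library without DEX, although 14 libraries had DEX and 22 had not. The regions nearest the 3′ end, R04 beyond it and R05 inside it, were of this kind, held by 1 DEX+BRM014 library at a fold of 3.87 and by 1 library of siGATA6 with DEX at 3.73. The single-library regions were weak, with a fold of 3.09 to 6.91 and a median of 4.1 at the summit. Of all 56 regions, 37 were held only by DEX libraries, 14 of these by 2 or more of them, and 4 only by libraries without DEX, 1 of these by 2 or more. These splits were not counted over all regions of the genome, so they are not shown to be particular to FKBP5. The fold and the −log10 q of a peak are the authors' values and describe that peak within its own library.

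At 2 h of DEX in siCtl cells, 10 of the 30 FKBP5 regions held by either group were gained, meaning that all 3 DEX libraries and no Veh library held them, and 0 were lost. Over the genome, 2.52% of regions were gained and 0.817% lost by the same rule. The 10 regions were not spread evenly, and most lay in the stretch at the outer start. R03 (chr6:35568883-35569422) lay beyond the 3′ end, R09 (chr6:35590637-35591010) and R13 (chr6:35602393-35602589) far inside, R37 (chr6:35691443-35691699) next to the inner start, and R40 (chr6:35715514-35715835), R43 (chr6:35722276-35722845), R44 (chr6:35725675-35726055), R45 (chr6:35726189-35726452), R46 (chr6:35726809-35727114) and R48 in the stretch at the outer start. R46 to R51 also overlap LOC285847 (chr6:35726762-35736947), and a peak cannot be assigned to 1 of 2 overlapping genes.

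Pileups were high at the gained regions between R43 and R48 and lower at the others. R43, 6.02 kb inside the outer start, had a fold of 8.46, 8.78 and 8.88 in the siCtl libraries with DEX and no peak in those with Veh. R09, 138 kb inside the outer start, had a fold of 5.83, 5.78 and 4.73 with DEX and no peak with Veh. The −log10 q was 58.2, 72.1 and 78.4 at R43 with DEX but 5.97, 5.92 and 3.96 at R09, so far more signal stood behind the calls at R43.

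In siGATA6 cells, 8 of 29 regions were gained with DEX at 2 h and 0 were lost, against 2.36% and 0.595% of regions over the genome. All 8 were among the 10 gained in siCtl cells, an overlap that was not counted over the genome. The other two, R03 and R09, failed by 1 library each: R03 was held by 3 of 3 siGATA6 libraries with DEX and 1 of 3 with Veh, and R09 by 2 of 3 and 0 of 3.

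The mean number of regions held was 23.3 ± 1.53 in siGATA6 with DEX and 9.67 ± 1.15 in siGATA6 with Veh, and 22.3 ± 0.577 in siCtl with DEX and 10.3 ± 0.577 in siCtl with Veh (SD, n = 3 each). With 3 libraries against 3, a two-sided exact permutation test cannot go below p = 0.1, which was the value for DEX in either siRNA (adjusted p = 0.2 over 4 comparisons). Permuted within siRNA, DEX added 12.8 regions per library (exact permutation p = 0.005, the smallest this test can give; adjusted p = 0.0075 over 6 tests), with a higher count in 6 of 6 DEX libraries than in any Veh library. Per 100000 peaks of a library, DEX libraries held 16.7 to 20.5 FKBP5 regions and Veh libraries 7.13 to 9.6.

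Regions that were already accessible without DEX also changed, which presence cannot show. The deposited fold sets the pileup at a summit, the number of sequenced reads or fragments stacked there, against the local background around the peak, and both parts can be recovered from the deposited fold and p. At R47, which lies just inside the outer start, the fold was 6.07, 5.94 and 6.84 in siCtl with DEX and 7.34, 8.59 and 7.98 in siCtl with Veh, lower in every DEX library. The pileup was 121, 140 and 158 in siCtl with DEX and 24, 27 and 26 in siCtl with Veh. The local background was 33.7 to 38.8 times the library background with DEX, and 3.66 to 4.17 times with Veh. Pileup and local background were thus both far higher in every DEX library, while the fold, which sets one against the other, was not.

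**Figure D2:**
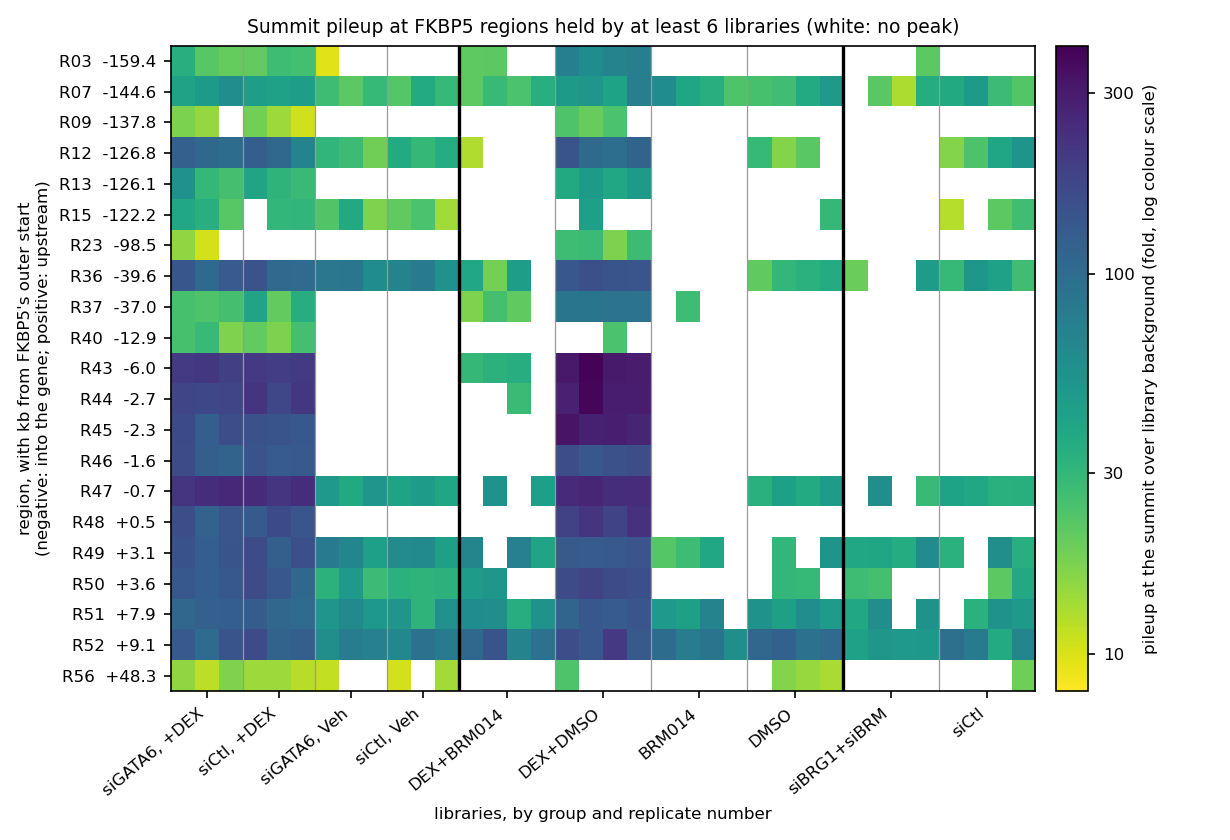
Pileup at the summit divided by the library background (colour, log scale) at the 21 FKBP5 regions held by at least 6 libraries, in gene order (rows) and by library (columns); white means no peak. The block from R43 to R48 is filled in DEX libraries without inhibitor and, but for R47, empty in every library without DEX.

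Pileups were divided by the library background to set depth aside and compared with limma on the log2 scale, fitted on all regions of the genome held by every library of both groups. In siCtl cells 8 FKBP5 regions qualified, and 7 were higher with DEX at an adjusted p of at most 0.05, where 2.48% of 78060 regions over the genome were higher and 1.94% lower. Their log2 fold changes had a median of 1.37 over the 8, against -0.02 over all regions. Among the 7, R49 to R52 overlap ARMC12 and lie near one another and R47, so the 7 may share signal. R47 stood at 246, 221 and 239 in siCtl with DEX and 41.6, 46.9 and 39.9 in siCtl with Veh, a log2 fold change of 2.46 ± 0.15 (SE, limma adjusted p = 6.17e-09). R50 (chr6:35731915-35732550), in ARMC12, stood at 161, 139 and 108 with DEX and 32.9, 31.3 and 32.3 with Veh (log2 fold change 2.06 ± 0.19, limma adjusted p = 1.3e-06). Neither region's groups overlapped. A region's value is its highest pileup in a library, wherever the summit lies in the merged region. Over all libraries, summits spread across 779 bp in R47, 689 bp in R12, 549 bp in R50 and 352 bp in R49. The spread was 89 bp in R36, 65 bp in R07, 62 bp in R51 and 23 bp in R52. Whether the DEX and Veh values of the wider regions come from the same place was not tested.

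R12 (chr6:35601321-35602218), 127 kb inside the outer start, lies deep in the gene and was open without DEX. It stood at 122, 107 and 69.7 in siCtl with DEX and 36.4, 29.5 and 35.3 in siCtl with Veh, a log2 fold change of 1.53 ± 0.22 (limma adjusted p = 0.000232). The promoter region R36 rose less. Its pileup over background was 146, 106 and 102 in siCtl with DEX and 69.3, 78.1 and 53.8 in siCtl with Veh (log2 fold change 0.81 ± 0.18, limma adjusted p = 0.0127). This call did not hold without replicate 1 of siCtl with DEX (adjusted p = 0.13) or of siCtl with Veh (adjusted p = 0.0507). R49 and R51, in ARMC12, rose by 1.42 ± 0.18 and 1.33 ± 0.21 on the log2 scale (limma adjusted p = 5.03e-05 and 0.000545).

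R52, the region held by every library, rose by 0.77 ± 0.17 (limma adjusted p = 0.011), a call that was lost without replicate 1 of siCtl with DEX (adjusted p = 0.115) or of siCtl with Veh (adjusted p = 0.0914). R07, also held nearly everywhere, did not pass, with 44.7, 42.6 and 45.5 in siCtl with DEX and 22.5, 36.5 and 29.2 in siCtl with Veh (log2 fold change 0.62 ± 0.25, limma adjusted p = 0.214). In siGATA6 cells, 8 of 9 such regions were higher with DEX, against 2.42% over the genome, from 0.72 at R36 to 2.42 at R47 on the log2 scale. R07 passed there (0.94 ± 0.26, limma adjusted p = 0.0209), and lost its call without replicate 2 or 3 of siGATA6 with DEX (adjusted p = 0.0666 and 0.0962) or replicate 2 of siGATA6 with Veh (adjusted p = 0.128). R36 in siGATA6 cells lost its call without replicate 1 of siGATA6 with DEX (adjusted p = 0.0924).

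In DEX libraries, local background was highest at the outer start. The window the caller took it from is not known, and R44 to R48 lie close together, so their values may share reads. How far the signal extends between the peaks was not tested. Over the regions R44 to R48, local background was 30.4 to 39 times the library background in siGATA6 with DEX and 31.9 to 39.6 times in siCtl with DEX. In Veh libraries, where R47 alone held a peak in that stretch, it was 4.01 to 4.36 times in siGATA6 cells and 3.66 to 4.17 times in siCtl cells. Next to the inner start, at R36, it averaged 3.72 ± 0.56 times in siCtl with DEX and 1.58 ± 0.27 times in siCtl with Veh (SD, n = 3 each). Further out, at R51, 7.85 kb upstream of the outer start, it averaged 12 ± 1.21 times in siCtl with DEX and 3.12 ± 0.19 times in siCtl with Veh (SD, n = 3 each).

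**Figure D3:**
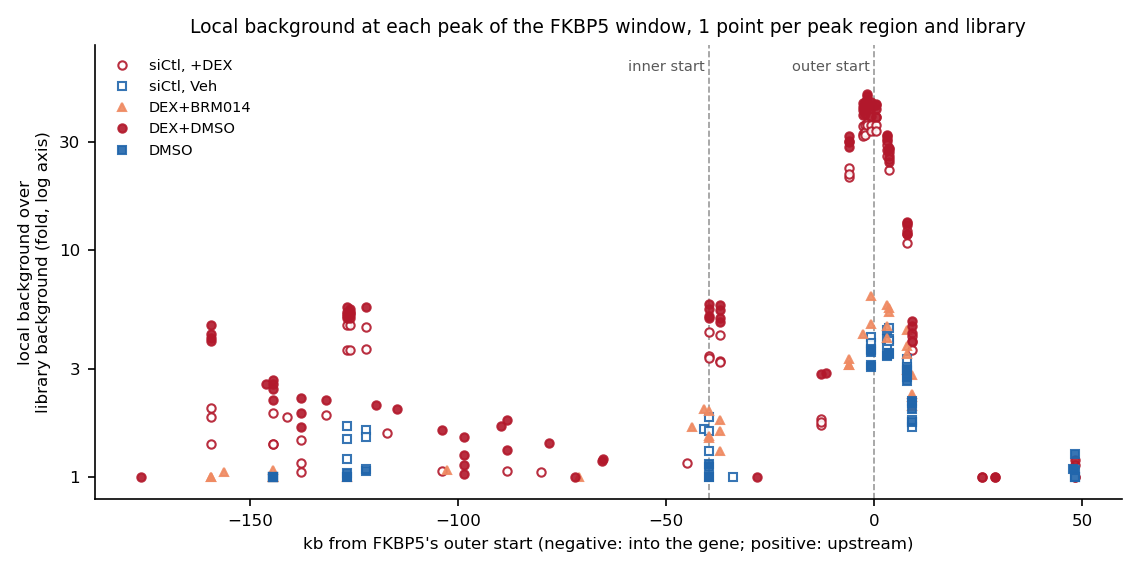
Local background of each peak divided by the library background (log axis) by distance from the outer start, 1 point per region and library in 5 of the groups; dashed lines mark both starts. DEX libraries without inhibitor reach 48.8 at the outer start, DEX+BRM014 libraries 6.28 and DMSO libraries 3.62 over R44 to R48.

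GATA6 knockdown was compared within each DEX level. At FKBP5 0 of 36 regions were gained and 0 lost between siGATA6 with DEX and siCtl with DEX, where 0.677% and 0.71% of regions over the genome were gained and lost, and 0 of 13 between siGATA6 with Veh and siCtl with Veh, against 0.459% and 0.806%. Over both DEX levels the number of regions held differed by 0.167 per library (exact permutation p = 1; higher in siGATA6 with DEX and lower in siGATA6 with Veh). Of 18 regions held by all 6 DEX libraries, 0 differed in pileup by limma at an adjusted p of at most 0.05 and 0 at an unadjusted p under 0.05, where 0.438% of regions over the genome were higher and 1.07% lower. The log2 differences ran from -0.32 at R37 to 0.16 at R12. Of 9 regions held by all 6 Veh libraries, 0 passed the same test, adjusted or not, where 0.473% were higher and 0.937% lower, and the log2 differences ran from -0.42 at R12 to 0.35 at R15. At R43 the pileup over background was 205, 213 and 190 in siGATA6 with DEX and 209, 197 and 205 in siCtl with DEX, which overlap (log2 difference -0.01 ± 0.12). The difference between the DEX effects in the 2 siRNAs was 1.67 regions (permutation of residuals, p = 0.177, adjusted p = 0.213). It rested on single libraries, since without replicate 1 of siGATA6 with Veh it was 2.33 with an adjusted p of 0.0428.

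At 4 h of DEX in the BRM014 experiment, DEX+DMSO libraries gained 9 of 38 FKBP5 regions against DMSO and lost 0, where 1.56% of regions over the genome were gained and 0.434% lost. Gained at both 2 h in siCtl cells and 4 h were 8 regions, 80% of the first set and 88.9% of the second. R09 and R40 were in the 2 h set only, and R23 (chr6:35629993-35630164), inside the gene, in the 4 h set only. In all, 11 regions were gained in at least one of the 3 DEX comparisons without inhibitor, and 7 in all of them. These overlaps were not counted over all regions of the genome, so they are not shown to be particular to FKBP5. No other protein-coding gene of 19974 had as many gained regions within 50 kb at 4 h. At 2 h in siCtl cells 4 genes, FKBP5 among them, had at least 10.

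DEX+DMSO libraries held 23 ± 2.83 regions and DMSO libraries 8 ± 1.41 (SD, n = 4 each), a difference of 15 (exact permutation p = 0.0286, the smallest possible for 4 against 4; adjusted p = 0.0714 over 5 comparisons). Over both inhibitor levels DEX added 9.88 regions (exact permutation within inhibitor level, p = 0.00122, adjusted p = 0.00245), with 23, 25, 25 and 19 in DEX+DMSO all above the DMSO libraries. The 10 regions gained at 2 h were scored in this experiment, whose libraries had no part in calling them gained. Peaks of these libraries did enter the merging that set the bounds of the regions. DEX+DMSO libraries held 9, 9, 10 and 8 of them and DMSO libraries 0 each (exact permutation p = 0.0286, adjusted p = 0.05 over 7 tests). All regions of the genome gained at 2 h were held at 55.5 ± 1.84% by DEX+DMSO libraries and 3.4 ± 0.626% by DMSO libraries, against 90% and 0% for the FKBP5 set.

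**Figure D4:**
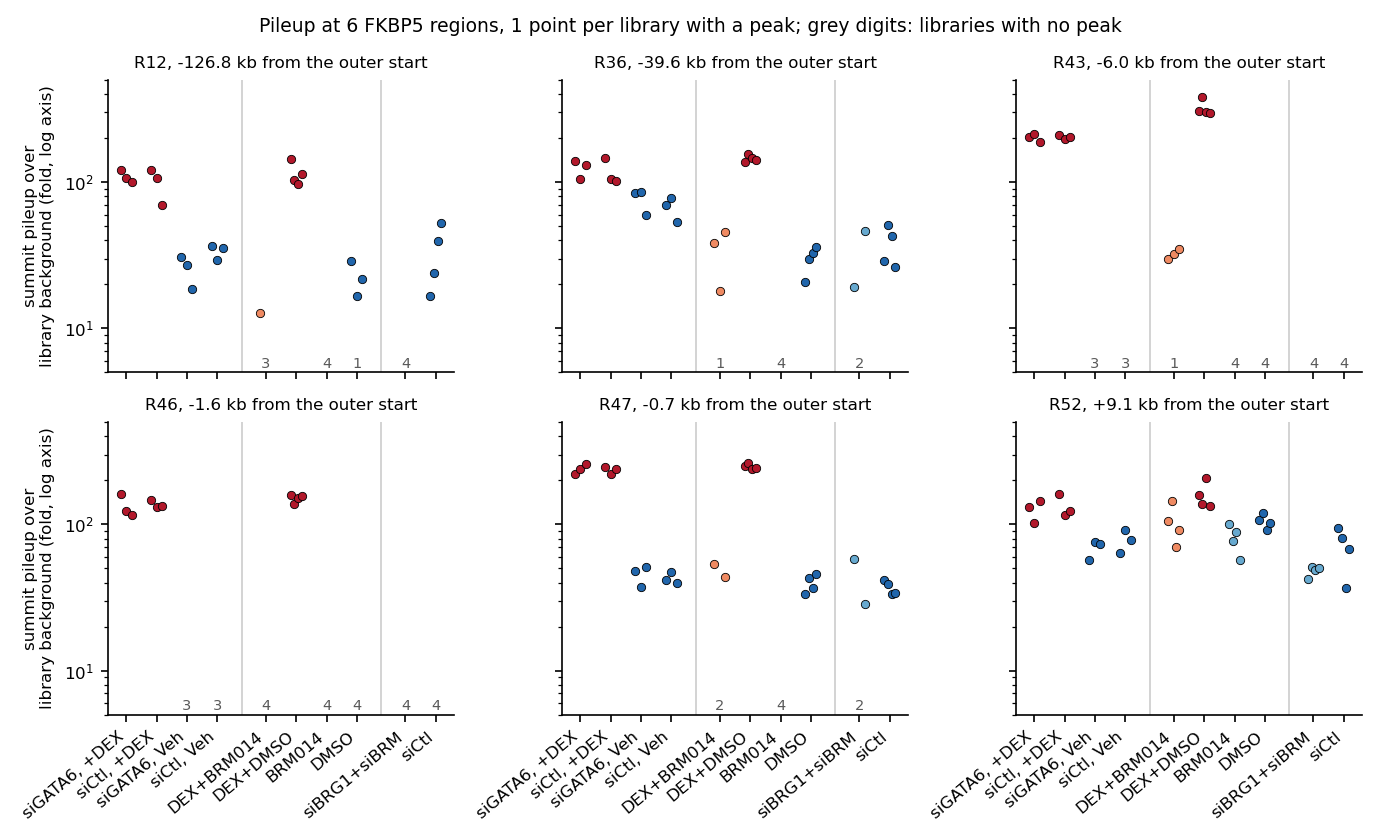
Pileup over library background (log axis) at 6 FKBP5 regions, 1 point per library that holds a peak; grey digits count libraries of a group with none. R43 and R46 have points with DEX only, and R47 and R36 stand higher with DEX than without it in the GATA6 experiment and in DMSO.

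At 4 h the regions at both starts were higher with DEX. The promoter region R36 stood at 138, 155, 145 and 142 with DEX+DMSO and 20.8, 29.8, 32.9 and 36.1 with DMSO, a log2 fold change of 2.31 ± 0.22 (limma adjusted p = 2.31e-16). R47 stood at 249, 262, 239 and 244 with DEX+DMSO and 33.2, 43.1, 36.5 and 45.9 with DMSO (log2 fold change 2.66 ± 0.18, limma adjusted p = 1.38e-26). The groups did not overlap at either region. Of 5 regions held by all 8 libraries, 4 were higher with DEX+DMSO, against 4.56% of 55491 regions over the genome that were higher and 7.09% that were lower. The others were R51 (1.37 ± 0.20, limma adjusted p = 2.72e-08) and R52 (0.59 ± 0.16, limma adjusted p = 0.00659). R52 lost its call without replicate 3 of DEX+DMSO (adjusted p = 0.0883). R07 did not pass (0.67 ± 0.27, limma adjusted p = 0.094), and did without replicate 4 of DMSO (adjusted p = 0.0395). Whether 2 h and 4 h differ was not tested, since time, experiment and depth differ together.

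Under BRM014 the response to DEX at the locus was smaller. DEX+BRM014 libraries held 9.25 ± 3.3 regions and BRM014 libraries 4.5 ± 2.08 (SD, n = 4 each), a difference of 4.75 (exact permutation p = 0.0857, adjusted p = 0.107), and 0 of 20 regions were gained or lost. Over the genome 0.323% of regions were gained and 0.155% lost in that comparison. The DEX effect was 10.2 regions smaller with BRM014 than with DMSO (permutation of residuals, p = 0.00105, adjusted p = 0.00245). Since libraries with the inhibitor had fewer peaks, the counts were also taken per 100000 peaks. DEX+BRM014 libraries then held 16.4 ± 4.41 and BRM014 libraries 8.08 ± 2.7, while DEX+DMSO libraries held 23.3 ± 2.66 and DMSO libraries 8.48 ± 1.32. On that scale the DEX effect was 4.91 smaller with BRM014, which missed the threshold (permutation of residuals, adjusted p = 0.0571).

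The inhibitor also lowered the number held when DEX was present. DEX+BRM014 libraries held 13.8 regions fewer than DEX+DMSO libraries (exact permutation p = 0.0286, adjusted p = 0.0714), and 5 of 42 were lost, namely R13, R23, R45, R46 and R48, and 0 gained. The share lost, 11.9%, was close to the 11.6% of regions lost over the genome, where 0.0761% were gained. Without DEX, BRM014 libraries held 3.5 regions fewer than DMSO libraries (exact permutation p = 0.0571, adjusted p = 0.0952). With an equal number of best peaks taken from each library the sign turned, to 1.5 more. The regions at both starts, R36 and R47, were lost there, 2 of 15 against 11.3% of regions over the genome, and 0 were gained, against 0.041%. Neither R36 nor R47 was called lost at a −log10 q of at least 5 or with an equal number of best peaks. Over both DEX levels BRM014 lowered the number by 8.63 (exact permutation within DEX level, p = 0.000816, adjusted p = 0.00245), and per 100000 peaks by 2.75 (adjusted p = 0.0618).

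The 10 regions gained at 2 h give the inhibitor's effect in libraries that were not used to call them gained. DEX+BRM014 libraries held 3, 3, 3 and 0 of them, DEX+DMSO libraries 9, 9, 10 and 8, BRM014 libraries 0, 1, 0 and 0, and DMSO libraries 0 each. DEX+BRM014 libraries held 6.75 fewer than DEX+DMSO libraries, and the groups did not overlap (exact permutation p = 0.0286, adjusted p = 0.05). The difference of 2 between DEX+BRM014 and BRM014 libraries had an exact permutation p of 0.143, and without replicate 4 of DEX+BRM014 it was 2.75 with an adjusted p of 0.04. The DEX effect on these regions was 7 smaller with BRM014 (permutation of residuals, p = 0.00018, adjusted p = 0.00126). Over the genome, the regions gained at 2 h were held at 6.92 ± 2.26% by DEX+BRM014 libraries and 1.43 ± 0.79% by BRM014 libraries.

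**Figure D5:**
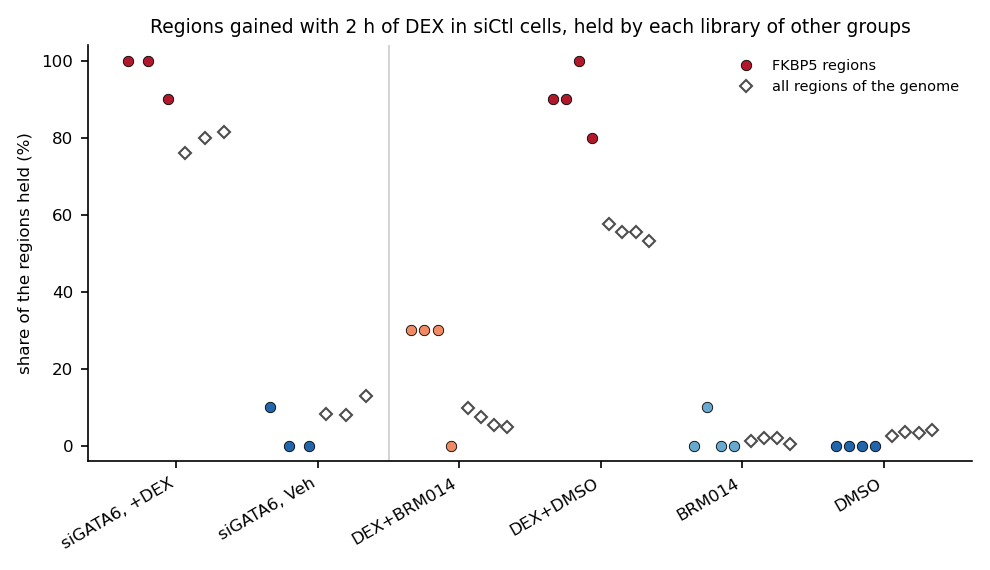
Share of the regions gained at 2 h in siCtl cells that each library of the other groups holds (%), for the 10 FKBP5 regions (filled circles) and for all 4277 such regions of the genome (open diamonds). DEX+DMSO libraries hold 80 to 100% of the FKBP5 set and DEX+BRM014 libraries 0 to 30%.

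At the gained regions, the peaks that remained under BRM014 were low. R43 had pileups of 7, 9 and 10 in replicates 1, 2 and 3 of DEX+BRM014 and no peak in replicate 4, against 91, 97, 87 and 76 with DEX+DMSO. Over the library background this was 29.7, 32.4 and 34.8 with DEX+BRM014 and 299.2 to 384.9 in the 4 DEX+DMSO libraries. R37 was held by the same 3 DEX+BRM014 libraries at 16.9, 25.2 and 20.9, against 87.5, 87.3, 90 and 90.5 with DEX+DMSO, and by 1 BRM014 library at 26.8. At the promoter, R36 stood at 38.1, 18 and 45.3 in 3 DEX+BRM014 libraries, overlapping the 20.8 to 36.1 of DMSO libraries. No BRM014 library held it.

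The regions upstream of the outer start, at ARMC12, had these values over the library background. R49 stood at 67.8, 73.2 and 40.8 in 3 DEX+BRM014 libraries, at 131 to 142 in the DEX+DMSO libraries, at 22.5, 26.8 and 38.3 in 3 BRM014 libraries and at 29.8 and 52.5 in 2 DMSO libraries. R50 stood at 46.6 and 50.4 in 2 DEX+BRM014 libraries, at 154 to 179 in the DEX+DMSO libraries and at 29.8 and 29.2 in 2 DMSO libraries, and no BRM014 library held it. R52 stood at 69.7 to 144 in the DEX+BRM014 libraries and 134 to 208 in the DEX+DMSO libraries, which overlap. Libraries without a peak at a region give no value.

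R47 was held by 2 DEX+BRM014 libraries, at 54 and 43.9, by all DEX+DMSO libraries at 239 to 262, by 0 BRM014 libraries and by all DMSO libraries at 33.2 to 45.9. The BRM014 libraries had 41026 to 60995 peaks and the DMSO libraries 88348 to 98220, while their background level, the measure of relative depth, was 0.235 to 0.299 in BRM014 and 0.241 to 0.305 in DMSO libraries. Regions held by every library allow a direct comparison. R51 stood at 51.3 ± 11.2 with DEX+BRM014 and 130 ± 13.9 with DEX+DMSO (SD, n = 4 each), a log2 fold change of -1.37 ± 0.25 (limma adjusted p = 4.57e-07). R07 and R52 were also lower, by -0.97 ± 0.30 and -0.67 ± 0.23 (limma adjusted p = 0.0065 and 0.0162). R07 lost its call without replicate 4 of DEX+DMSO (adjusted p = 0.0677), and R52 without replicate 3 of DEX+BRM014 (0.155) or of DEX+DMSO (0.123). The median over all 33684 such regions was -0.28, and 27.2% were lower and 0.419% higher. After centring on that median R51 stayed lower, whereas R07 (-0.42, adjusted p = 0.203) and R52 (-0.11, adjusted p = 0.608) did not pass.

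Without DEX only R07 and R52 were held by all BRM014 and DMSO libraries, and neither passed by limma. R07 stood at 59.9, 40.1, 34 and 23.4 with BRM014 and 24.9, 26.5, 36.5 and 49.2 with DMSO (log2 fold change 0.17 ± 0.32, adjusted p = 0.783). R52 stood at 101, 76.9, 89.4 and 56.9 with BRM014 and 108, 119, 91.2 and 102 with DMSO (log2 fold change -0.40 ± 0.28, limma adjusted p = 0.336). The median over all 31241 such regions of the genome was -0.36, and 26.9% were lower. With DEX under the inhibitor, neither region passed either, where 0.349% of regions were higher (R07 -0.48 ± 0.35, R52 0.32 ± 0.33 on the log2 scale; limma adjusted p = 0.9999 for both).

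With siRNA against both ATPases and no DEX, 5.5 ± 1.73 regions were held, against 8.25 ± 1.71 in siCtl (SD, n = 4 each; exact permutation p = 0.114, adjusted p = 0.114). R12 was the 1 region of 13 lost, where 6.73% of regions over the genome were lost, and 0 were gained, against 0.0282%. Per 100000 peaks the siBRG1+siBRM libraries held 10.8 ± 2.86 and the siCtl libraries 9.64 ± 2.11, so the sign turned there. The loss of R12 was not called, with 0 regions lost, when peaks were merged within the experiment, when summits were clustered, at a −log10 q of at least 5, with an equal number of best peaks, or when a peak had to cover 50% of the region. R12 had stood at 16.5, 23.9, 39.5 and 52.8 in siCtl and had no peak in siBRG1+siBRM libraries, which also had fewer peaks. It had no peak in any BRM014 library either, and 1 of 4 DEX+BRM014 libraries held it.

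The 7 regions lost with BRM014 at either DEX level were scored in this experiment. Of the 7, R36 and R47 alone were held by siCtl libraries, which had no DEX, so no more than these could be lost. The siBRG1+siBRM libraries held 1, 1, 0 and 2 of them, against 2 each in siCtl (exact permutation p = 0.143). R36 stood at 19.3 and 46.4 in 2 siBRG1+siBRM libraries and 26.4 to 50.8 in siCtl, and R47 at 58 and 28.6 in 2 siBRG1+siBRM libraries and 33.4 to 41.3 in siCtl. At both regions 1 of the 2 siBRG1+siBRM values lay below every siCtl value. The other lay within the siCtl range at R36 and above every siCtl value at R47. The 2 libraries without a peak give none.

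R52 was the 1 region held by all 8 libraries of that experiment. It stood at 42.5, 50.7, 48.5 and 50 in siBRG1+siBRM and 95, 80.6, 36.5 and 67.9 in siCtl, which overlap (log2 fold change -0.46 ± 0.34, limma adjusted p = 0.299). The median over all 28242 such regions of the genome was -0.47, and 17.5% were lower.

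ZBTB16 and TSC22D3, both well-known glucocorticoid targets, were taken for comparison. ZBTB16, which encodes a zinc finger repressor, had 51 regions within 50 kb, and TSC22D3, which encodes GILZ, an anti-inflammatory effector, had 27. At 2 h in siCtl cells ZBTB16 gained 8 of 38 regions and TSC22D3 8 of 24, and at 4 h 7 of 41 and 5 of 22. Over the genome 2.52% of regions were gained at 2 h and 1.56% at 4 h. ZBTB16 lost 1 region at 2 h and 1 at 4 h, and TSC22D3 lost 1 and 0, against 0.817% and 0.434% of regions. Under BRM014 DEX gained 1 of 18 regions at ZBTB16 and 0 of 9 at TSC22D3, as against 0 of 20 at FKBP5 and 0.323% over the genome. DEX+BRM014 libraries lost 13 of 41 regions at ZBTB16 and 6 of 21 at TSC22D3 relative to DEX+DMSO, against 11.6% over the genome. These shares were higher than the 5 of 42 at FKBP5, though the difference between loci was not tested.

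Genes whose number of held regions moved most like that of FKBP5 were found by Pearson's r over the 36 libraries, centred on each experiment, among 16084 genes with at least 10 regions in windows that do not overlap that of FKBP5. They were TSC22D3 (r = 0.941), the glucose transporter gene SLC2A14 (0.928), PACSIN2, which encodes a membrane-bending protein (0.912), TRNP1 (0.906) and NFKBIA, which encodes an inhibitor of NF-κB (0.906). The median r over all genes was 0.416. The points share their libraries, and the values describe these libraries only. PACSIN2 held 17.8 regions on average with DEX+DMSO and 9.25 with DMSO, and 7 with DEX+BRM014 and 4.75 with BRM014.

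FKBP5 works with the Hsp90 chaperone system, and 20 genes of that system, the receptor's own gene NR3C1 among them, were listed. At 2 h in siCtl cells 9 of the 20 had a gained region within 50 kb, against 22.4% of all protein-coding genes. They include STIP1, which links Hsp70 to Hsp90, and the Hsp70 partners DNAJA1 and DNAJB1, with 1, 1 and 2 gained regions. In siGATA6 cells it was 6 of 20, against 23.1%, and at 4 h 2 of 20, DNAJA1 and DNAJB1, against 14.2%. Under BRM014 it was 0 of 20, against 2.28%. Regions were also lost with DEX at 2 h, in 2 of the 20 in siCtl cells, HSP90AA1 and NR3C1, against 7.5% of all genes, and in 3 in siGATA6 cells, NR3C1 among them, against 5.85%. NR3C1 held 14 regions on average in siCtl with DEX and 19 in siCtl with Veh, and 12 and 18 in siGATA6 cells. At 4 h it held 12.25 with DEX+DMSO and 12.5 with DMSO, and 5.25 with DEX+BRM014 and 7.25 with BRM014. At 4 h none of the 20 lost a region with DEX, in DMSO against 3.62% of all genes and under BRM014 against 0.704%. A region was lost with BRM014 at 15 of the 20 with DEX, against 55.5%, and at 8 without DEX, against 51.9%. With siBRG1+siBRM it was 5 of the 20, against 35.3%. The median number of gained regions over the list was 0 in each of the 4 comparisons of DEX, as over all genes, against 10, 8, 9 and 0 for FKBP5.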

How the data were processed

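Peaks were deposited for each library separately. The build was GRCh38 (hg38) and the tools were MACS2, HOMER, SAMtools and bcl2fastq, per the submitters' processing notes. The aligner and the caller's settings were not given in the sources used here. The authors deposited, per peak, a fold at the summit over local background, −log10 p, −log10 q and a score, which was not used. The lowest −log10 q was 1.30.

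Peaks overlapping by at least 1 bp were merged over all 36 libraries, and presence was compared by exact permutation tests over libraries, two-sided, with Benjamini-Hochberg adjustment. Interactions used 100000 permutations of residuals. For every peak the whole pileup and local background were recovered from the deposited fold and p by the caller's Poisson relation, with all 431 FKBP5 values matched within 0.01. Their log2 ratio to the library background was fitted with limma 3.58.1 (R 4.3.3) over all regions held by every library of both groups, with adjustment over all of them, a step chosen after seeing the data and tested on simulated data. Other steps used Python 3.11.15, numpy 2.4.6, pandas 2.3.3 and scipy 1.17.1. Named regions were those gained or lost in a comparison, those held by all 36 libraries and those nearest the gene's ends; the regions that entered a limma fit were added after their values were seen.

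Members and lists were chosen with earlier results of these data known. Nothing says that replicates came from separate cultures beyond their titles. Replicate numbers were not used as pairs, since same-numbered deviations did not correlate above 0.1 in every pair of any comparison. Libraries of MDA-MB-231 were not analysed here. A further marker gene that was examined is not reported here.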

Additional observations from a re-analysis of the deposited data

Results flagged for a closer look

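The DEX effect on the number of FKBP5 regions held differed between inhibitor levels: it was 10.25 regions smaller with BRM014 than with DMSO, a difference of -10.25. For the 10 regions gained at 2 h the same difference was -7.

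Single libraries stood apart from their groups of 4, by a gap over Dixon's 95% critical value. That value is exceeded by chance in about 1 in 20 groups of continuous values. Here the other libraries of each group tie at small counts, so any difference passes it and that rate does not hold. The sets gained at 2 h and at 4 h share 8 regions, so their flags are not separate. In BRM014, replicate 2 held 1 of the regions gained at 2 h and 1 of those gained at 4 h, and the others 0. In DEX+BRM014, replicate 4 held 0 of either set and the others 3 each. Replicate 2 of DEX+BRM014 held 2 of the 7 regions lost with BRM014 and the others 1 each. In siBRG1+siBRM, replicate 4 held 1 region of either gained set and the others 0. Replicate 4 of DEX+BRM014 had 49906 peaks, against 50979 to 64198 in the others.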

How the results depend on the processing

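Inhibitor and siBRG1+siBRM libraries had fewer peaks than their controls at a like background level (0.235 to 0.319 and 0.241 to 0.305 with and without BRM014, 0.259 to 0.309 in siBRG1+siBRM and 0.242 to 0.335 in siCtl); the cause of each change below was not tested. Requiring a −log10 q of at least 5 gave DEX at 4 h 11.25 in DMSO and 2.75 under BRM014, and BRM014 with DEX -11, all now past the threshold (exact permutation, adjusted p = 0.0476), and 0 regions lost with BRM014 or siBRG1+siBRM. An equal number of best peaks per library gave 10.5, 2.25 and -6.75, past it likewise, BRM014 over both DEX levels -2.625, no longer past it, siBRG1+siBRM 1.75, BRM014 alone 1.5 and siGATA6 over both DEX levels -0.167, these 3 reversed, and 0 lost with BRM014 or siBRG1+siBRM. As a share of peaks, siGATA6 gave -0.128 and siBRG1+siBRM 0.785, both reversed, and BRM014 -2.755 and the DEX by BRM014 difference -4.907, both no longer past it. Merging within experiments gave DEX at 4 h 15.5, BRM014 with DEX -15 and siBRG1+siBRM -4, and clustering summits within 150 bp 15.5, -15.25 and -3.75, all past it, with 0 lost with siBRG1+siBRM in both; clustering also gave siGATA6 -0.167, reversed, and the regions lost with BRM014 -2.5 in siBRG1+siBRM (adjusted p = 0.04). A window of 100 kb gave 16.5, -18.25, siBRG1+siBRM -8.5 and BRM014 alone -7 (exact permutation, adjusted p = 0.0357), -4 for the regions lost with BRM014, and 10 and 5 lost with BRM014+DEX and siBRG1+siBRM. Requiring a peak to cover 50% of the region gave 11 and 0 lost there, and 1 with BRM014. Leaving out regions held by 1 library, chosen after seeing the data, gave DEX at 4 h 12.5, BRM014 with DEX -12.25 and -4.25 for BRM014 alone.

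Libraries were not taken as paired, since same-numbered deviations did not correlate above 0.1 in every pair of any comparison (range -0.0515 to 0.103). For siGATA6 against siCtl, however, same-numbered libraries correlated more than others. With Veh the range was 0.0255 to 0.0887 for equal numbers and -0.0508 to 0.0235 for others. With DEX it was 0.018 to 0.0656 and -0.0569 to 0.00905. In the other comparisons these ranges overlapped. A weak pairing in the GATA6 experiment was not tested further. With a replicate block none of the following values was past the threshold. Over 4 pairs, where the smallest p is 0.125, they stayed -10.25 and -7 for the DEX by BRM014 differences. They also stayed 9 and -6.75 for the regions gained at 2 h with DEX at 4 h and with BRM014 and DEX. Over the pairs of both siRNAs, where the smallest p is lower, they stayed 12.83 for DEX at 2 h. There they stayed 8.167 for the regions gained at 4 h. The block changed no limma call.

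Leaving out 1 library at a time gave -0.25 to 0.5 for siGATA6 over both DEX levels, below 0 without replicate 1 of siGATA6 with Veh or replicate 2 of siGATA6 with DEX, and 0.833 to 2.33 for the DEX by siGATA6 difference. It gave 3.5 to 6.17 for DEX under BRM014 and -15.08 to -12.33 for BRM014 with DEX, both past the threshold without replicate 4 of DEX+BRM014, and -1.333 to -0.667 for the regions lost with BRM014 in siBRG1+siBRM.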
